A study of Rattus norvegicus with 8 samples.

Results

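A set of 10 genes that move calcium through the heart muscle cell was followed in the left ventricle of 2 rat strains. They are Cacna1c and Cacnb2 for calcium entry, Ryr2, Casq2, Jph2 and Trdn for release, Atp2a2 and Pln for reuptake, and Slc8a1 and Atp2b4 for extrusion. The members were fixed by name, and all 10 of 10 were measured, among 17259 genes in all. A gene value is the mean log2 intensity of every probe set annotated to that gene alone, and 223 probe sets served the 10 genes, from 4 for Pln to 82 for Ryr2. SHR stands for spontaneously hypertensive rat. PD5 is its minimal congenic strain, so both share the SHR background and differ by a small introgressed segment, the extent of which the labels do not state. All animals were males of 2 months on standard chow with no treatment, 4 per strain, with RNA from left ventricular myocardium on 1 array per animal. The PD5 animals carry the numbers 207, 209, 210 and 212, and the SHR animals 213, 215, 218 and 219, so the strains also differ in number, and an effect of order could not be told apart from strain.

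With each heartbeat, L-type channels in the transverse tubules admit a little calcium, which opens ryanodine receptors in the facing sarcoplasmic reticulum and releases a much larger amount. Relaxation follows when the SERCA pump returns calcium to the store, under restraint by phospholamban, and the sodium-calcium exchanger and the plasma membrane calcium pump carry the rest out of the cell. In hypertrophied and failing ventricle, lower SERCA and higher exchanger are textbook findings.

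None of the 10 genes passed the test for a difference between PD5 and SHR in limma with Benjamini-Hochberg adjustment over all genes. The smallest adjusted p was 0.914, 0 of 10 genes had an unadjusted p under 0.05, and in 0 of 10 did the groups fail to overlap. Among all 17259 genes 9 passed, which is 0.0521%, while 5.68% had an unadjusted p under 0.05 and 3.49% had groups that did not overlap. That count of 9 lay between 1 (without PD5 210 or SHR 218) and 7 (without SHR 215) when 1 array was left out, and the count among the 10 members was 0 in each case. Of the members, 8 were higher in PD5 and 2 lower, where 50.1% of all genes were lower, with a median log2 difference of 0.04, against 0.00 over all genes. The median absolute difference was 0.07 for the members and 0.07 for all genes.

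The tissue label was matched by the muscle markers. The 6 measured cardiomyocyte markers, which include the myosin and troponin genes Myh6, Tnnt2 and Tnni3, had a mean log2 level of 12.71 to 12.82 in PD5 and 12.73 to 12.83 in SHR. The mean of 4 skeletal muscle markers was 5.33 to 5.56 in PD5 and 5.17 to 5.43 in SHR. The 5 atrial markers spread widely, from 8.77 to 9.71 in PD5 and from 8.14 to 9.94 in SHR, with the highest values in PD5 212 and SHR 219. By strain means all 5 were higher in PD5, and 0 had an unadjusted p under 0.05. The mean of 6 adipocyte markers was 7.73 in PD5 210 and between 6.31 and 6.60 in the other 7 animals. It was carried mainly by Ucp1, at 9.05 in PD5 210 and 3.79 to 4.83 elsewhere, with Adipoq, Plin1 and Cidea also highest there, while Lep and Cfd were not. The 6 macrophage and monocyte markers lay at 7.80 to 7.87 in PD5 and 7.90 to 8.20 in SHR, so these list means did not overlap. Of the 6 genes taken singly, 0 had groups that did not overlap, 1 had an unadjusted p under 0.05 (Cd163, lower in PD5) and Cd68 was slightly higher in PD5. The 5 mesothelial markers had means of 6.23 to 6.51 in PD5 and 6.37 to 7.23 in SHR, with the highest in SHR 219. All 5 were lower in PD5, 2 of them with an unadjusted p under 0.05 (Upk3b and Krt19), and 0 passed after adjustment. Of 4 measured endothelial markers, 2 were higher and 2 lower in PD5, and 0 passed. Vwf was higher by 0.16 with groups that did not overlap, and Fabp4 was lower, at -0.22. Both had an unadjusted p under 0.05. The part of these markers in the results below was not tested. In bulk tissue, fewer cells of a type and less RNA per cell cannot be told apart. Array medians ranged from 6.93 to 6.98, and the mean r of an array with the remaining ones was lowest for SHR 219 (0.950) and PD5 210 (0.952).

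**Figure D1:**
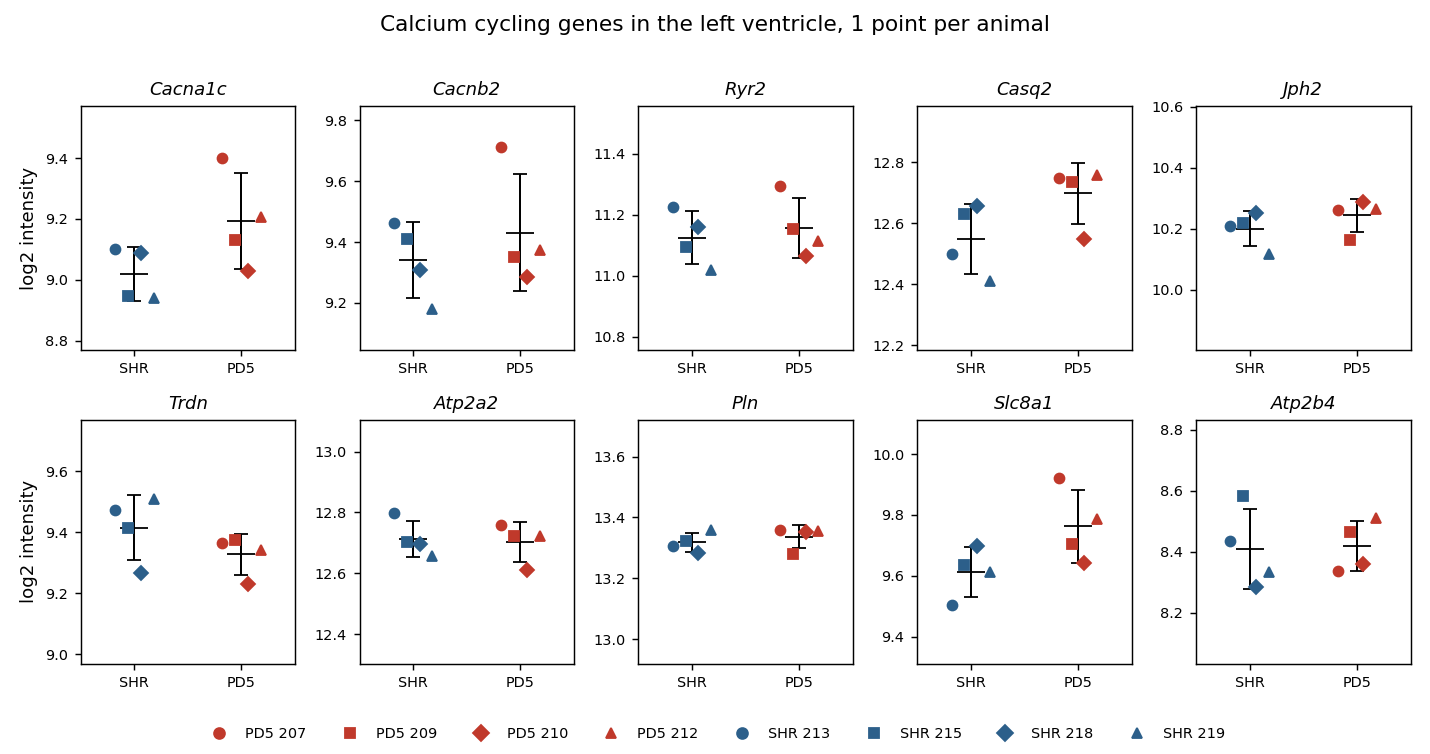
Log2 intensity of the 10 calcium cycling genes in each animal, 1 panel per gene, all panels spanning the same log2 range. Points are single animals, the horizontal mark and bars are the mean and SD of 4 animals, and in every panel the SHR (blue) and PD5 (red) points overlap.

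The upstream sequences of 4 members are shown because these genes carry the comparison of pump, inhibitor and release channel. Cacnb2 is added because its pair with Ryr2 had the highest Pearson r across the animals, which did not pass after adjustment, and Pln had the smallest SDs. Each is the 250 bases before the RefSeq start on GRCr8, written 5′ to 3′ on the gene's strand. Capitals mark GC boxes (GGGCGG on either strand, overlapping matches joined) and GATA motifs (AGATAA or TGATAA on either strand). All 10 members matched the RefSeq table, with 11 windows because Cacnb2 has 2 starts. The Cacnb2 start shown is the one with the lower coordinate.
Ryr2, chr17:63081277-63081526, plus strand: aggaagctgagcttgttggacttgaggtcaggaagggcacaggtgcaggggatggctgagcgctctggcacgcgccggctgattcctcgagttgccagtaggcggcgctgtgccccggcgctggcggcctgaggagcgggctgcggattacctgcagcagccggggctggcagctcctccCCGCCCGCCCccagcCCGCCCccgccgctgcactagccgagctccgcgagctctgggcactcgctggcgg
Cacnb2, chr17:82472965-82473214, plus strand: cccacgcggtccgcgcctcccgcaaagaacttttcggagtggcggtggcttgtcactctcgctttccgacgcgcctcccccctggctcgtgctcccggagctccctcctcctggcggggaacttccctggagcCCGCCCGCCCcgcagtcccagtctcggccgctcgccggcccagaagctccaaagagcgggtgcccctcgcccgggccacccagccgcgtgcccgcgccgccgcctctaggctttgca
Atp2a2, chr12:39733269-39733518, plus strand: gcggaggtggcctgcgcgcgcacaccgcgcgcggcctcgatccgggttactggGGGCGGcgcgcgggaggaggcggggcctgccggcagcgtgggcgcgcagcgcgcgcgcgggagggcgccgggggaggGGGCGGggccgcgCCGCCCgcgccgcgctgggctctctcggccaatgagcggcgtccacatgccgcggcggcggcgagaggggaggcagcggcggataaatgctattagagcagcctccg
Pln, chr20:33172244-33172493, plus strand: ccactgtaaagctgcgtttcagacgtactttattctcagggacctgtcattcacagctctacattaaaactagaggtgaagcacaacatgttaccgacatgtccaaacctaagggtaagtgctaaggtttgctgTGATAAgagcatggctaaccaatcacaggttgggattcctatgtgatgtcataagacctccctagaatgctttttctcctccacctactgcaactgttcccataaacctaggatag
The Ryr2 window holds 3 GC boxes, the Atp2a2 window 3 and the Cacnb2 window 2, and their GC content is 72.0%, 80.0% and 73.2%. The Pln window is 44.0% GC, holds no GC box and has 1 GATA motif. A GC box is in 3 of the 11 member windows and in 30.5% of all 33469 windows of this length, and a GATA motif is in 1 member window and in 16.9% of all. A TATA box (TATAAA), a MEF2 motif (CTANNNNTAG) and a glucocorticoid response element (GNACANNNTGTNC), each searched on both strands, had no match in any of the 11 member windows and are in 12.9%, 3.41% and 0.373% of all windows. The letters describe these windows and say nothing of which factor binds there.

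The strains overlapped in both genes of calcium entry. Cacna1c, the pore-forming subunit of the L-type channel, had log2 levels of 9.40, 9.13, 9.03 and 9.21 in PD5 207, 209, 210 and 212, and of 9.10, 8.95, 9.09 and 8.94 in SHR 213, 215, 218 and 219. PD5 207, 209 and 212 were above every SHR animal, PD5 209 by a narrow margin, and PD5 210 lay inside the SHR range. The difference of 0.17 (SE 0.09) in limma had a 95% interval from -0.03 to 0.38 and an adjusted p of 0.914, the smallest of the 10 members. On a linear scale this interval runs from -2.03% to 29.7%. The difference was 0.10 without PD5 207, 0.23 without PD5 210 and 0.06 with the median of the probe sets.

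Cacnb2, the beta subunit that brings the channel to the membrane, had levels of 9.71, 9.35, 9.29 and 9.37 in the PD5 animals and 9.46, 9.41, 9.31 and 9.18 in the SHR animals, in the same order of numbers. PD5 207 stood highest and the other PD5 animals lay among the SHR animals. The difference was 0.09 (SE 0.11, 95% interval -0.15 to 0.33, limma adjusted p = 0.992), and it was -0.0040 without PD5 207.

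The ryanodine receptor gene Ryr2, the release channel of the heart, had means of 11.16 in PD5 and 11.13 in SHR. The PD5 animals lay at 11.29, 11.15, 11.06 and 11.11 and the SHR animals at 11.23, 11.10, 11.16 and 11.02, and the ranges overlapped almost fully. The difference was 0.03 (SE 0.07, 95% interval -0.14 to 0.20, limma adjusted p = 0.992). With 82 probe sets it is the most densely sampled member, and the interval on the linear scale is -9.08% to 14.9%.

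Casq2, calsequestrin, stores calcium in the lumen beside the release channel. It lay at 12.75, 12.74, 12.55 and 12.76 in PD5 and at 12.50, 12.63, 12.66 and 12.41 in SHR. All PD5 animals but 1 exceeded every SHR animal, and PD5 210, where the mean of the adipocyte markers was highest, lay within the SHR range. The difference was 0.15 (SE 0.08, 95% interval -0.03 to 0.33, limma adjusted p = 0.928). A large share of it came from 1 of the 13 probe sets, which lay at 10.73 ± 0.42 (SD, n = 4) in the PD5 animals and 9.61 ± 1.14 (SD, n = 4) in the SHR animals, and without that probe set the difference was 0.07.

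Jph2, junctophilin, tethers the tubule to the sarcoplasmic reticulum. It lay at 10.26, 10.16, 10.29 and 10.26 in PD5 and at 10.21, 10.22, 10.25 and 10.12 in SHR. The groups overlapped, and the difference was 0.04 (SE 0.06, 95% interval -0.09 to 0.18, limma adjusted p = 0.992). It was 0.017 without SHR 219 and 0.071 without PD5 209.

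Trdn, triadin, anchors calsequestrin to the release channel. It was 9.37, 9.38, 9.23 and 9.34 in PD5 and 9.47, 9.42, 9.27 and 9.51 in SHR. All SHR animals but 1 were above all PD5 animals, and SHR 218 was below 3 of these. The difference was -0.09 (SE 0.07, 95% interval -0.25 to 0.08, limma adjusted p = 0.988). It was 0.16 with the median of the probe sets, the only alternative in which its direction changed.

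Both reuptake genes had differences close to 0. Atp2a2, the SERCA pump, had levels of 12.76, 12.72, 12.61 and 12.72 in PD5 and 12.80, 12.70, 12.70 and 12.66 in SHR. SHR 213 was the highest animal and PD5 210 the lowest, with the rest interleaved. The difference was -0.01 (SE 0.06, 95% interval -0.15 to 0.13, limma adjusted p = 0.996), which on a linear scale is -10.1% to 9.59%. It crossed 0 with several settings, for example to 0.02 without PD5 210.

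Pln, phospholamban, is the small membrane protein that holds the pump back until it is phosphorylated. It lay at 13.36, 13.28, 13.35 and 13.36 in PD5 and at 13.31, 13.32, 13.29 and 13.36 in SHR, so that PD5 209 held the lowest value and PD5 207 and SHR 219 shared the highest. The difference was 0.02 (SE 0.06, 95% interval -0.11 to 0.14, limma adjusted p = 0.995), or -7.25% to 10.6% on a linear scale. Its SDs of 0.04 in PD5 and 0.03 in SHR were the smallest of the 10 genes.

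The log2 difference of Atp2a2 and Pln within each array removes any shift common to a whole array. That quantity was lower in PD5 by -0.03, with an SD of 0.08 in each strain, and did not separate them (two-sided exact permutation p = 0.629, 70 arrangements, smallest possible 0.0286). The levels of the 2 genes themselves are not compared, because the array gives no level per length.

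On the extrusion side, Slc8a1, the sodium-calcium exchanger, had levels of 9.92, 9.70, 9.64 and 9.79 in PD5 and 9.50, 9.63, 9.70 and 9.61 in SHR. PD5 207, 209 and 212 were above every SHR animal, PD5 209 by a narrow margin, and PD5 210 lay inside the SHR range. The difference was 0.15 (SE 0.08, 95% interval -0.03 to 0.33, limma adjusted p = 0.917), or -1.83% to 25.5% on a linear scale. All 10 of its probe sets were higher in PD5, by 0.0025 to 0.345, and probe sets of 1 gene are not 10 independent measurements. The difference was 0.098 without PD5 207 and 0.04 with the brightest probe set alone.

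The log2 difference of Slc8a1 and Atp2a2 within each array was higher in PD5 by 0.16, with an SD of 0.08 in PD5 and 0.13 in SHR. The two-sided exact permutation p was 0.0571 with a smallest possible value of 0.0286, so it did not pass. The only overlap was between SHR 218 (-3.00) and PD5 209 (-3.02). The change was 0.20 without SHR 218 (p = 0.0286, exact permutation, 35 arrangements), where that p is also the smallest possible. Leaving out SHR 218 removes the overlap by construction, so that p adds no support. With the brightest probe set it was 0.04 (p = 0.714, exact permutation).

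Atp2b4 encodes a plasma membrane calcium pump that has a signalling role in the cardiomyocyte beside a small part in extrusion. It lay at 8.34, 8.47, 8.36 and 8.51 in PD5 and at 8.43, 8.58, 8.28 and 8.33 in SHR. SHR animals held both the highest and the lowest value, and the difference was 0.01 (SE 0.08, 95% interval -0.17 to 0.19, limma adjusted p = 0.996).

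**Figure D2:**
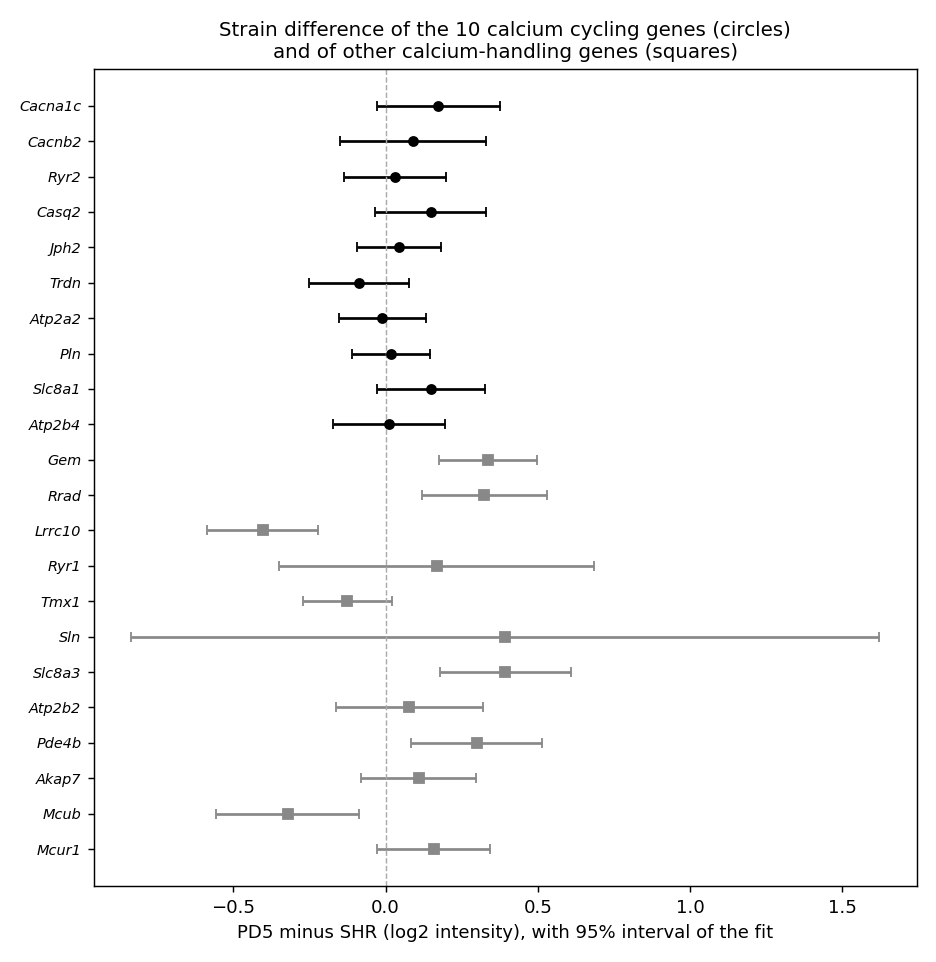
Strain difference, PD5 minus SHR in log2 intensity, on the x axis for the 10 calcium cycling genes (black circles) and the named genes of the wider calcium lists (grey squares), with 95% intervals of the fit. All 10 black intervals include 0, and the intervals of Atp2a2 and Pln are centred at -0.01 and 0.02.

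Single probe sets of the 10 genes were also tested over all 220231 probe sets. In limma 0 of the 223 member probe sets passed, where 2 probe sets passed in all, which is 0.000908%. At an unadjusted p under 0.05 there were 3 member probe sets, 1 each in Cacna1c, Ryr2 and Trdn, or 1.35%, against 4.98% of all probe sets. Groups did not overlap in 3 member probe sets, against 2.87% of all. These were 2 of Slc8a1, higher in PD5 by 0.16 and 0.21, and 1 of Ryr2, lower by a log2 difference of -0.29, and none passed (limma adjusted p = 0.998 each).

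Several of the widest departures among probe sets of one gene were dim. The Cacna1c probe set with a difference of 1.50 lay at 5.42 ± 0.88 (SD, n = 4) in the PD5 animals and 3.92 ± 1.30 (SD, n = 4) in the SHR animals, and it had the lowest level of all 223. Differences of the 34 Cacna1c probe sets ran from -0.30 to 1.50, and 28 were higher in PD5. Those of the 82 Ryr2 probe sets ran from -0.68 to 0.89, with 46 higher and 36 lower. One Atp2a2 probe set lay apart at -0.64, with 7.85 in PD5 210 and 8.90 to 9.52 in the other PD5 animals, while 14 of the 23 were higher in PD5. The 4 Pln probe sets kept within -0.0075 and 0.04. In Trdn, 12 of 15 were lower in PD5 and in Casq2 10 of 13 higher. The files used here give no exon position for a probe set, so these differences are not assigned to isoforms.

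**Figure D3:**
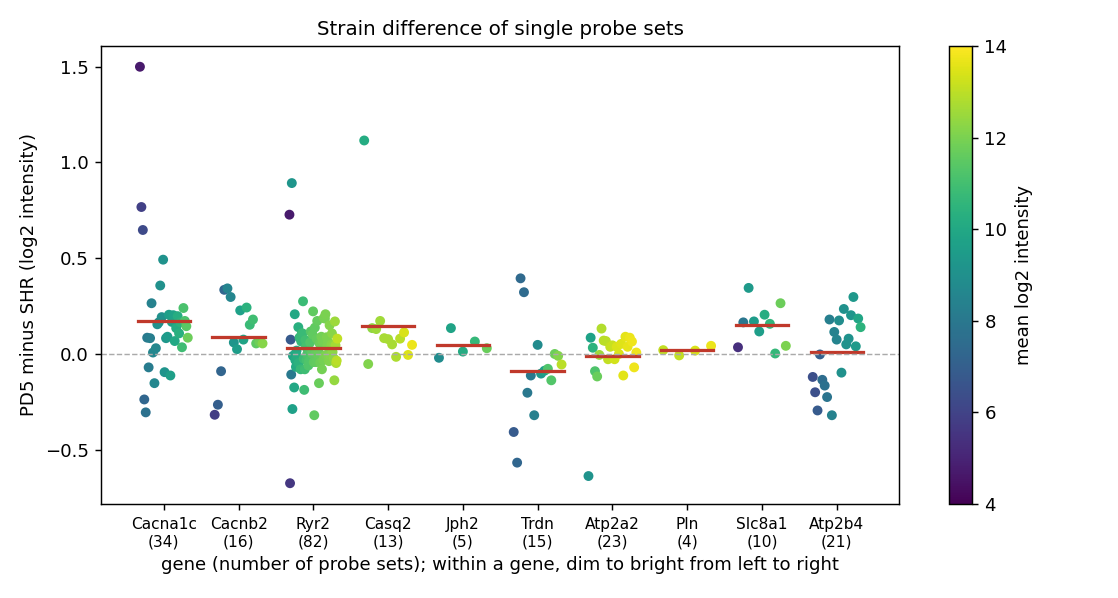
Strain difference of each of the 223 probe sets (y axis, PD5 minus SHR in log2 intensity), grouped by gene with the number of probe sets below the name and ordered within a gene from dim to bright, with colour for mean log2 intensity. Red lines are the gene values, and the widest departures, at 1.50 in Cacna1c, 1.12 in Casq2 and 0.89 in Ryr2, are single probe sets.

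Some animals stood at an extreme in several of these genes at once. With 1 array per animal, an animal and its array cannot be told apart. PD5 207 was the highest of the 8 animals in 4 genes (Cacna1c, Cacnb2, Ryr2 and Slc8a1) and shared the top in Pln. SHR 219 was the lowest in 5 (Cacna1c, Cacnb2, Ryr2, Casq2 and Jph2), and it was also the array with the lowest correlation with the others. Among the 45 pairs of members over 8 animals, 31 had a Pearson r above 0, with a median of 0.26. The strain means were not removed for these values, so a strain difference enters them. The unadjusted exact permutation p was under 0.05 in 8 pairs, and 0 passed after adjustment over the 45 pairs (smallest adjusted p = 0.118 for Pearson r and 0.100 for Spearman rho).

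By Pearson r the highest pair was Cacnb2 and Ryr2, with r = 0.89 (exact permutation p = 0.00263, adjusted p = 0.118) and a Spearman rho of 0.76 (exact permutation p = 0.0368, adjusted p = 0.207). Within the strains r was 0.96 in PD5 and 0.79 in SHR, each over 4 animals and given as a value only. Without PD5 207 and SHR 219, the animals farthest from the median of Cacnb2, r was 0.58, so much of the value of 0.89 rests on them. For each pair the 2 animals left out are those farthest from the median of the first gene named. This narrows the range of that gene, which can lower r by itself. By Spearman rho the highest pair was Casq2 and Slc8a1, with rho = 0.93 (exact permutation p = 0.00223, adjusted p = 0.100) and r = 0.77 (p = 0.0201, adjusted p = 0.152), and r was 0.74 without SHR 213 and SHR 219. Ryr2 and Atp2a2 had r = 0.81 (exact permutation p = 0.0165, adjusted p = 0.152) and rho = 0.79 (p = 0.0279, adjusted p = 0.207). Without PD5 207 and SHR 219, r for Ryr2 and Atp2a2 was 0.87. Cacna1c and Cacnb2 had r = 0.81 (exact permutation p = 0.0220, adjusted p = 0.152) and rho = 0.64 (p = 0.0962, adjusted p = 0.433). Without PD5 207 and SHR 219, r for Cacna1c and Cacnb2 was 0.02, so the value of 0.81 rested on them. Jph2 and Trdn ran in opposite directions, with r = -0.78 (exact permutation p = 0.0237, adjusted p = 0.152) and rho = -0.86 (p = 0.0107, adjusted p = 0.161). Their r was -0.86 without PD5 209 and SHR 219. With the strain means removed, r was 0.89 for Cacnb2 and Ryr2, 0.62 for Casq2 and Slc8a1, and 0.85 for Ryr2 and Atp2a2. By the same measure it was 0.83 for Cacna1c and Cacnb2 and -0.72 for Jph2 and Trdn.

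**Figure D4:**
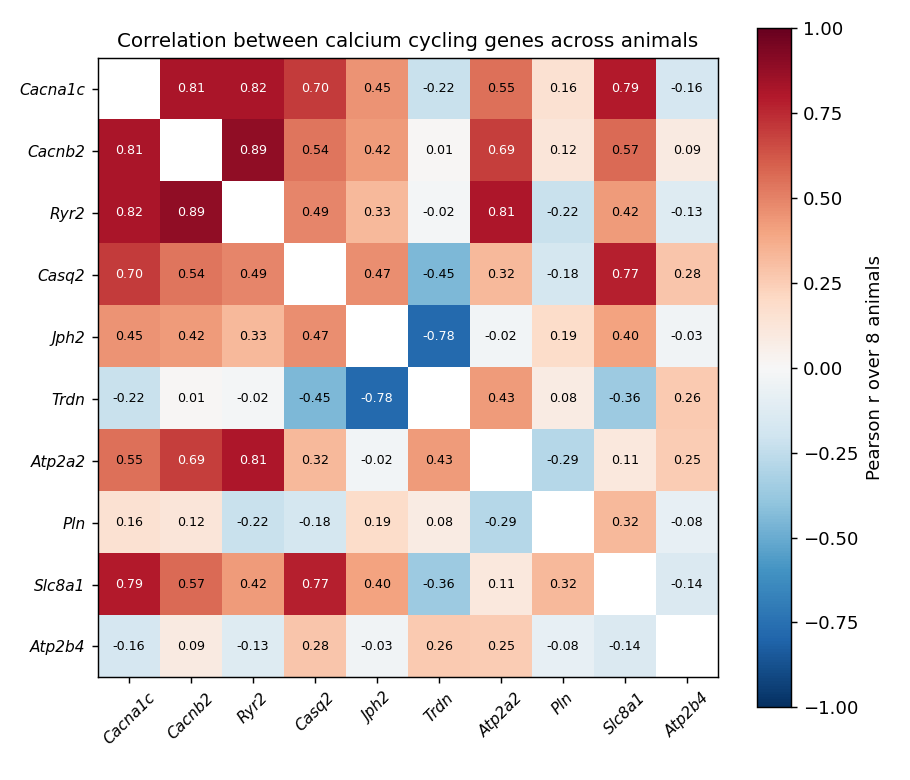
Pearson r between each pair of the 10 genes over the 8 animals, from -1 (blue) to 1 (red), with the value printed in each cell. Cacna1c, Cacnb2 and Ryr2 form a red block with r of 0.81 to 0.89, Jph2 and Trdn form a blue cell at -0.78, and 0 of the 45 pairs passed after adjustment.

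Within the members and the wider calcium lists, 94 genes were compared with each member by Pearson r of deviations from the strain means over the 8 arrays. The most similar gene was Pde3a, a phosphodiesterase that limits cAMP near the pump, for Cacna1c (r = 0.93), Cacnb2 (r = 0.94) and Ryr2 (r = 0.91). It was Akap6, a kinase anchor of the nuclear envelope, for Atp2a2 (r = 0.92). For Casq2 it was Ppp3r1, the regulatory subunit of calcineurin (r = 0.93, but 0.50 without removing the strain means). The others were Cacnb4 for Atp2b4 (r = 0.93), Gem for Trdn (r = 0.80, but -0.17 without removing the strain means), the T-type channel gene Cacna1g for Pln (r = 0.80), Hax1 for Slc8a1 (r = 0.67) and Rrad for Jph2 (r = 0.58). Cacnb4 is dim, between 4.36 and 5.15 in the 8 animals. These are descriptions over 8 arrays that share array-wide variation, and the highest of 94 values is large by construction.

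The wider calcium lists held 100 genes, of which 85 were measured, and 0 passed in limma over all genes. Unadjusted p was under 0.05 in 6 of the 85, 4 higher and 2 lower in PD5, where 2.78% of all genes were higher and 2.91% lower at that level. The groups did not overlap in 5 of the 85, beside 3.49% of all genes. The median difference was 0.01 and the median absolute difference 0.04, below the 0.07 of all genes. The lists and all genes were not matched for level or number of probe sets, so these medians are not a test.

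Of the 16 other channel subunits and channel inhibitors, 0 passed, 8 were higher and 8 lower. The 2 with an unadjusted p under 0.05 were Gem and Rrad, small GTPases of 1 family that bind the beta subunit and suppress L-type current. Gem lay at 7.45, 7.55, 7.47 and 7.57 in PD5 and 7.24, 7.14, 7.05 and 7.28 in SHR. Every PD5 animal was above every SHR animal, with a difference of 0.34 (SE 0.07, limma adjusted p = 0.287), which was 0.11 with the brightest and 0.49 with the median probe set. Rrad lay at 10.39, 10.15, 10.21 and 10.28 in PD5 and 10.12, 9.96, 9.89 and 9.75 in SHR. Its groups also did not overlap, PD5 209 and SHR 213 being closest, and the difference was 0.32 (SE 0.09, limma adjusted p = 0.581).

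Of the 23 other proteins of the release unit, tubule and lumen, 0 passed, 13 were higher and 10 lower. Lrrc10, a leucine-rich repeat protein of cardiomyocytes reported to bind the L-type channel, had the smallest p of all 85 genes. It lay at 10.10, 10.33, 10.31 and 10.28 in PD5 and 10.61, 10.55, 10.68 and 10.81 in SHR. All SHR animals were above all PD5 animals, and the difference was -0.40 (SE 0.08, 95% interval -0.59 to -0.22, limma adjusted p = 0.239). It stayed between -0.44 and -0.35 with 1 array left out, and was -0.29 with the brightest of the 3 Lrrc10 probe sets. With a trended robust variance the difference of -0.40 passed (limma adjusted p = 0.00838), so the call depends on the variance model. That setting called 47 genes in all, where the main fit called 9. Ryr1, the skeletal muscle receptor, was dim, at 5.40 ± 0.38 (SD, n = 4) in the PD5 animals and 5.23 ± 0.41 (SD, n = 4) in the SHR animals.

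The upstream window of Lrrc10 is shown because this was the gene of the calcium lists nearest to the threshold. Capitals mark 2 GATA motifs, 1 match to the glucocorticoid response element and 1 TATA box, by the same letters as above.
Lrrc10, chr7:54572685-54572934, plus strand: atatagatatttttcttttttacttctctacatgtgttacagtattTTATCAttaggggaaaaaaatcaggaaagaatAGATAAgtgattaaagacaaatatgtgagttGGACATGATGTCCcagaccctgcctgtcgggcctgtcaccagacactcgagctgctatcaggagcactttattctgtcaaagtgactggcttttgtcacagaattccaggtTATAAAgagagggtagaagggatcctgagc
The TATA box lies 30 to 25 bases before the RefSeq start, and the element lies 141 to 129 bases before it. The window was searched after the expression values were seen, and the match is a description of the letters.

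**Figure D5:**
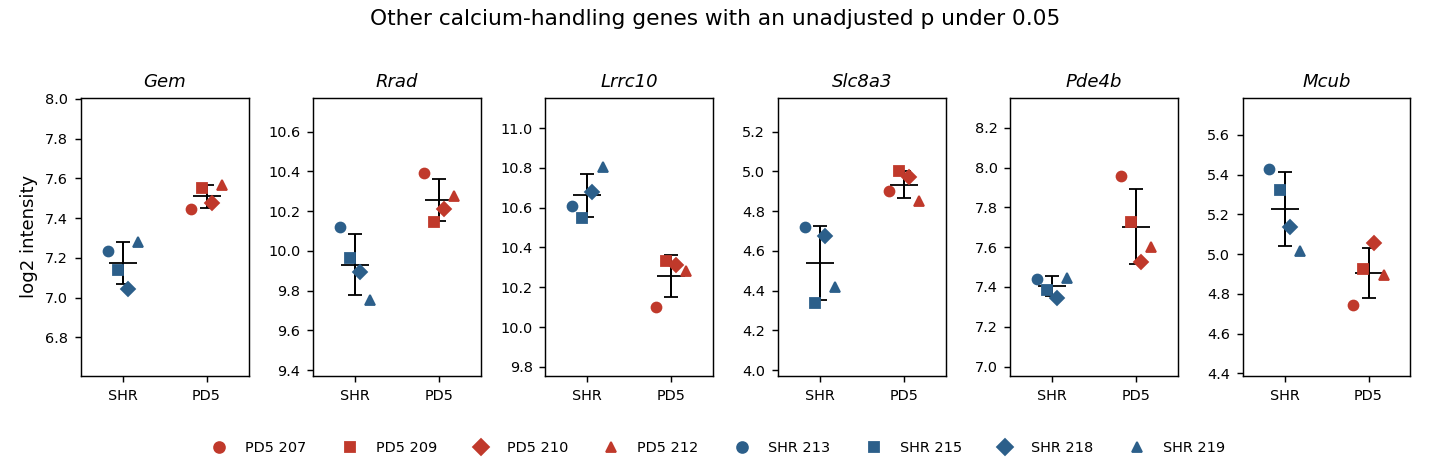
Log2 intensity in each animal for the 6 genes of the wider calcium lists with an unadjusted p under 0.05, with mean and SD of 4 animals. SHR (blue) and PD5 (red) do not overlap in Gem, Rrad, Lrrc10, Slc8a3 and Pde4b and overlap in Mcub.

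Of 22 measured kinases, phosphatases and phosphodiesterases, 0 passed, 15 were higher and 7 lower. Pde4b, which breaks down cAMP, lay at 7.96, 7.73, 7.53 and 7.60 in PD5 and 7.44, 7.38, 7.35 and 7.45 in SHR. PD5 207 stood highest, the groups did not overlap, and the difference was 0.30 (SE 0.09, limma adjusted p = 0.680). It was 0.13 with the brightest and 0.56 with the median probe set. Akap7, which anchors protein kinase A beside phospholamban, followed at 0.11 (SE 0.08, adjusted p = 0.980).

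Of 7 measured surface exchangers and pumps, 0 passed, 4 were higher and 3 lower. Slc8a3, an exchanger of skeletal muscle and brain, had groups that did not overlap, at 4.93 ± 0.07 (SD, n = 4) in the PD5 animals and 4.54 ± 0.19 (SD, n = 4) in the SHR animals (limma adjusted p = 0.463). The lowest 25% of gene levels end at 5.27, and Slc8a3 lies among them, so the size of its difference of 0.39 cannot be read. Atp2b2, another plasma membrane pump, was at 0.08 (SE 0.11).

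Of 4 measured pumps and small regulators, 0 passed, 3 were higher and 1 lower. Sln, sarcolipin, the inhibitor of SERCA in atrial muscle, was the most variable calcium gene named here. It lay at 8.85, 8.69, 8.47 and 9.69 in PD5 and at 8.31, 7.25, 8.34 and 10.22 in SHR. PD5 212 and SHR 219, the highest animals here, also had the highest atrial markers, a list that includes Sln. The difference of 0.39 (SE 0.55, 95% interval -0.83 to 1.62, limma adjusted p = 0.992) was far smaller than the spread in SHR. Tmx1, a membrane protein of the endoplasmic reticulum, was at -0.13 (SE 0.06, adjusted p = 0.914).

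Of 13 measured genes of mitochondrial and store-operated uptake, 0 passed, 4 were higher and 9 lower. Mcub, an inhibitory subunit of the mitochondrial uniporter, was at 4.90 ± 0.13 (SD, n = 4) in the PD5 animals and 5.23 ± 0.18 (SD, n = 4) in the SHR animals (limma adjusted p = 0.701), again among the lowest 25% of gene levels. Mcur1, a regulator of that uniporter, was at 0.16 (SE 0.08, adjusted p = 0.917).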

How the data were processed

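Left ventricular RNA of 8 rats was measured on whole-transcript arrays. The deposited values are log2 intensities, made by the authors in Partek 6.6 according to the labels' processing notes. How background, normalization and probe set summary were handled is not stated there, and the deposited log2 values were used unchanged. Of 220231 probe sets, 166557 named 1 gene, 1631 several and 52043 none. Symbols were updated through the GRCr8 gene table (2891 replaced, 41 unmatched), and symbols that became the same were joined.

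Genes and probe sets were tested with limma 3.58.1 in R 4.3.3 (lmFit and eBayes, two-sided), adjusted over all features and called at an adjusted p under 0.05. Intervals cover 95%. The functions were tested on simulated data. The number of arrays limits the precision. The members, gene lists and tests were chosen with earlier results of these data known. In each list, the genes with an unadjusted p under 0.05 and the 2 with the largest absolute difference are named. Genes on the lists without a probe set of their own are not analysed here. Alternatives covered the gene summary, filters, normalization, variance model, array weights and left-out arrays.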

Additional observations from a re-analysis of the deposited data

Results flagged for a closer look

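In 3 of 48 groups of 4 animals, 1 animal stood apart from the other 3, with a gap to its neighbour, as a share of the whole range, above Dixon's 95% critical value. Chance flags about 1 in 20 groups. Casq2 was at 12.55 in PD5 210 and between 12.74 and 12.76 in the other PD5 animals. Pln was at 13.28 in PD5 209 and between 13.35 and 13.36 in the others, a gap that is small in size. Atp2b2 was at 7.67 in SHR 218 and between 8.01 and 8.03 in the other SHR animals.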

How the results depend on the processing

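The count of members past the threshold was 0 under all 18 alternatives, and that of member probe sets was 0 under each of the 15 that apply to probe sets. At an unadjusted p under 0.05 there were 3 members (Cacna1c, Casq2 and Slc8a1) with a trended robust variance and without PD5 210, and 1 (Slc8a1) with array weights. The count of 9 genes over all genes was 0 with the brightest probe set, 0 without moderation, 5 with median centring, 47 with a trended robust variance and 0 without both PD5 210 and SHR 219. It lay between 1 and 7 with 1 array left out.

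Several differences changed sign without passing. With the median of the probe sets, Trdn was at 0.16, Atp2a2 at 0.015, Atp2b4 at -0.013 and the change in Atp2a2 minus Pln at 0.0050. With the brightest probe set, Atp2a2 was at 0.0075, Ryr1 at -0.040 and Atp2b2 at -0.15. Without PD5 210 and SHR 219 together Atp2a2 was at 0.0019, and without its most different probe set, an alternative chosen after seeing the data, at 0.018. Leaving out 1 array gave ranges of 0.10 to 0.23 for Cacna1c, 0.10 to 0.20 for Casq2, 0.017 to 0.071 for Jph2, -0.14 to -0.055 for Trdn, 0.0069 to 0.037 for Pln, 0.098 to 0.19 for Slc8a1, -0.0040 to 0.14 for Cacnb2, -0.014 to 0.065 for Ryr2, -0.029 to 0.021 for Atp2a2, -0.031 to 0.068 for Atp2b4, -0.0069 to 0.32 for Ryr1, -0.034 to 0.96 for Sln (1.11 without both PD5 210 and SHR 219), -0.0081 to 0.14 for Atp2b2 and -0.061 to 0.0076 for Atp2a2 minus Pln. For Slc8a1 minus Atp2a2 the range was 0.097 to 0.20. The highest, without SHR 218, had an exact permutation p of 0.0286, the smallest possible with the arrays left. SHR 218 was the SHR animal that overlapped PD5, so leaving it out removes the overlap by construction. The cause of these shifts was not tested. No paired analysis was possible because the strains share no animal number. The 4 animals per strain leave intervals of 0.13 to 0.24 to each side of a member's difference.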
